A study of Mus musculus with 12 samples.

Results

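Hippocampi of vehicle-injected mice that received daily 40 Hz light and sound were compared, cell type by cell type, with hippocampi of vehicle-injected mice that did not. The libraries were those titled PBS stim and PBS nonstim, replicates 1 to 3 of each, which make up 6 of the 12 libraries of the study and 10857 of its 19834 cells. All mice were female C57/BL6J animals of 9 weeks, and both groups were injected with phosphate-buffered saline (PBS), the control for the platinum drug cisplatin that the other 6 libraries received. PBS stim mice were given gamma entrainment using sensory stimuli (GENUS), a 40 Hz sound pulse together with LED flicker, for 1 h on each of 21 days from the day of the first injection, and tissue was taken on day 22. The labels describe no sham stimulation for PBS nonstim mice. Replicate 1 of each group came from 2 hippocampi of 1 animal, and replicates 2 and 3 each pooled 4 hippocampi of 2 animals. The library names put replicate 1 in a series with prefix 20 and replicates 2 and 3 in a series with prefix 21, here the first and the second batch.

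Gamma rhythms are fast oscillations of neuronal networks that arise from the interplay of excitatory cells and fast-spiking inhibitory interneurons, and rhythmic light or sound at a gamma frequency can drive them in sensory cortex and hippocampus. In mouse models of neurodegeneration such stimulation has been studied for its effects on microglia, the resident phagocytes, on astrocytes, which handle water and glutamate, and on the vessels and fluid spaces of the brain. The PBS mice give the response to the stimulation without the drug. Immediate early genes such as Fos turn over within hours of activity, so they report on the time around tissue collection as much as on the stimulation period.

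Each of the 6 libraries held between 611 and 2772 cells, and its total of unique molecular identifiers (UMIs) was 3964338 at the lowest and 16835507 at the highest, with a median of 3330 to 6798 UMIs per cell. First-batch libraries differed from the others in both groups, with median mitochondrial shares of 10.7% and 12% against 3.19% to 4.65% and ribosomal RNA-like shares of 0.479% and 0.542% against 1.87% to 3.65%. PBS stim replicate 3 had the shallowest cells and the lowest median share of unspliced UMIs, 18.8% against 28.4% to 31.4% in the other second-batch libraries. Of 10835 cell barcodes in the 6 libraries, 22 occurred in more than 1. The authors' cell types carried their own markers in most cases: the summed level of 6 oligodendrocyte markers was 49346 to 57634 CPM, the count scaled to a common library total, in oligodendrocytes, and that of 6 microglial markers was 22502 to 24060 CPM in microglia. Cells annotated as Immune went partly against their label, since they held 10004 to 21927 CPM of the microglial markers beside 911 to 9904 CPM of 6 immune markers. Cells annotated as pericytes held 9666 to 12865 CPM of 5 endothelial markers beside 7106 to 13625 CPM of their own.

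Shares of the 12 annotated cell types did not pass the test in any case. Choroid plexus epithelium, the tissue that secretes cerebrospinal fluid, made up 2.29%, 4.83% and 9.94% of the cells without stimulation and 2.95%, 16.1% and 24.1% with it. The stimulated library was the higher of each pair within a batch, and the groups overlapped. Its log2 difference was 1.22 ± 0.49 (SE, 95% interval 0.15 to 2.28, unadjusted p = 0.0282), with an adjusted p of 0.339 over 12 types, and the exact 2-sided permutation test within batches gave p = 0.167, the smallest its 12 arrangements allow. Oligodendrocytes, which make myelin, were 33.0%, 23.4% and 29.2% without stimulation and 25.5%, 18.7% and 20.1% with it, a log2 difference of −0.42 ± 0.21 with an adjusted p of 0.460 and the same permutation p. Astrocytes were 15.3%, 15.8% and 12.4% against 24.4%, 12% and 9.19%, so stimulated replicate 1 was the highest of all 6 and stimulated replicate 3 the lowest. Microglia stayed between 19.1% and 29.2% in all 6 libraries and neurons between 3.41% and 11.3%, both with overlapping groups. All shares are of the cells recovered after dissociation.

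**Figure D1:**
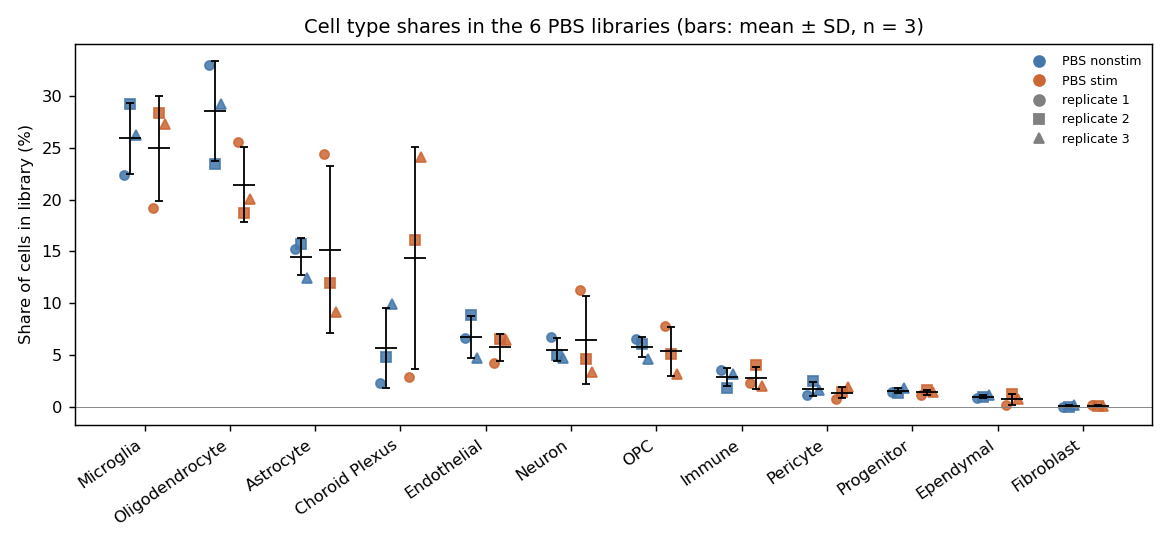
Share of cells (%, vertical axis) of each annotated cell type in each of the 6 PBS libraries, with points for libraries, symbols for replicate numbers and bars for mean ± SD (n = 3). Choroid plexus points reach 24.1% in PBS stim and 9.94% in PBS nonstim, and the groups overlap.

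Gene expression was tested in the 9 cell types with enough cells, on UMI counts summed over the cells of a library and type. With edgeR's quasi-likelihood test and Benjamini-Hochberg adjustment, 0 of 69488 gene and cell type tests passed an adjusted p of 0.05, a background of 0% in every type and in both directions. At an unadjusted p under 0.05 there were 1992 (2.87%), of which 324 of 8145 lay in endothelium, 308 of 7684 in oligodendrocyte precursors (OPCs), 291 of 10094 in oligodendrocytes, 267 of 9903 in microglia, 266 of 6591 in pericytes, 251 of 10163 in astrocytes, 116 of 7952 in choroid plexus, 104 of 6561 in neurons and 65 of 2395 in Immune cells. These shares ran from 1.46% in choroid plexus to 4.04% in pericytes, each below the 0.05 that uniform p-values would give. By limma-voom 0 passed, with 2519 at an unadjusted p under 0.05, and by DESeq2 7 passed, with 722, all 7 of them in Immune cells. The smallest adjusted p was 0.0791 in OPCs and 0.376 in microglia, and at least 0.9995 in each of the other 7 types.

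The count of 0 depended on the fit. With the replicate number as a block, 38 genes passed, 13 higher and 25 lower with stimulation. The labels do not pair stimulated and control libraries by number, so values given with the block rest on an assumed pairing. In the second batch alone 27 passed, 14 higher and 13 lower, and in a fit of the 6 PBS libraries without the cisplatin libraries 73 passed, 20 higher and 53 lower, 44 of them in choroid plexus. Where 1 library was left out the count ran from 1 to 13, the highest without PBS stim replicate 1. Genes are therefore given with their values in each library, and none of them passed the test unless another fit is named. Most were picked for a small p, so groups that do not overlap are no separate evidence. The share of all tested genes without overlap is not given. Single libraries weighed heavily: of 142 gene and cell type pairs followed across fits, 94 had an estimate that moved by over 1.5 times when 1 of the 6 PBS libraries was left out.

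The test was precise enough in the larger cell types to bound most changes. The 95% interval of the fold change lay within a 2-fold change in both directions for 51439 of 69488 genes (74.0%), with 90.7% of genes in microglia, 86.7% in oligodendrocytes, 84.7% in astrocytes and 82.9% in OPCs. Endothelium reached 73.5%, neurons 61.2%, choroid plexus 56.6%, pericytes 50.5% and Immune cells 37.2%. Among genes of at least 100 CPM the share was 90.7% to 99.7% in 8 types and 51.3% in Immune cells. The median standard error of a log2 fold change ran from 0.17 in microglia to 0.40 in Immune cells.

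**Figure D2:**
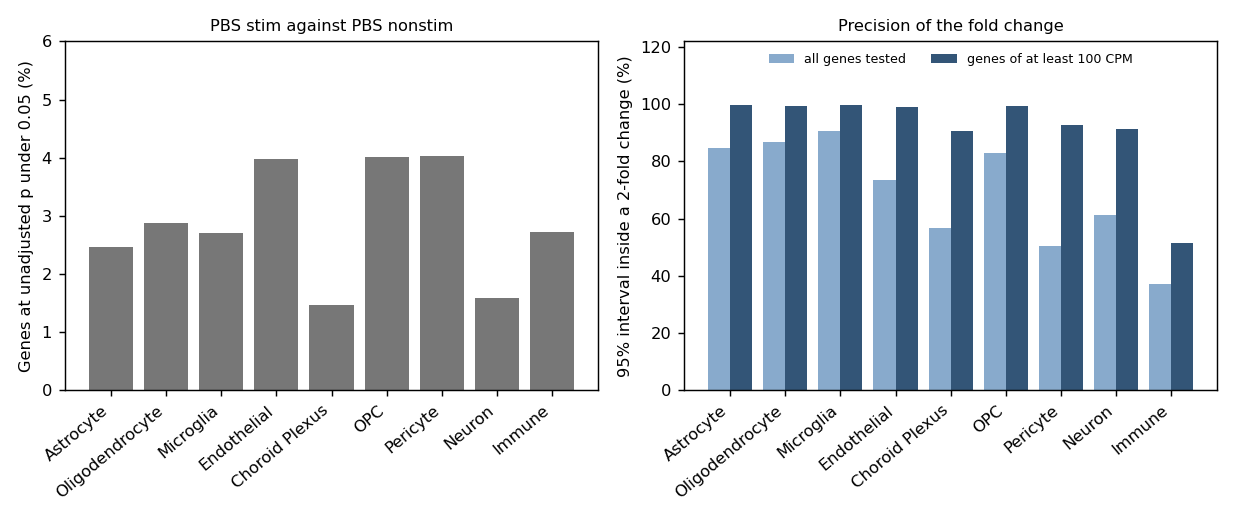
Left, percent of tested genes with an unadjusted p under 0.05 by cell type. Right, percent of genes whose 95% interval of the log2 fold change lies inside a 2-fold change, for all genes tested and for genes of at least 100 CPM, where 8 of 9 types exceed 90%.

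In oligodendrocytes the smallest p of the higher genes lay in genes of the interferon response and of antigen presentation on major histocompatibility complex (MHC) class I. Interferons act through STAT transcription factors that bind promoter elements made of repeated GAAA units, and their targets include the Ifit family, which bind viral RNA, and the class I chain genes with their partner beta-2-microglobulin. Of 30 listed interferon genes 10 were tested in oligodendrocytes, 0 passed, 7 had estimates above 0 and 6 had an unadjusted p under 0.05, all higher, with a list median of 1.19 on the log2 scale against −0.0016 over all genes tested. The other 20 were too low to be tested, and members such as Ifit1, with 0, 3 and 2 control UMIs, passed the low-count filter only through libraries in which they were higher, so the count and median describe the tested members and lean to higher values. Of 17 class I presentation genes 11 were tested, 0 passed, 10 had estimates above 0 and 4 had an unadjusted p under 0.05, with a median of 0.64. In other types the interferon median was −0.43 over 10 genes in astrocytes, −0.14 over 27 in endothelium, 0.17 over 22 in microglia, 0.05 over 22 in pericytes, 0.04 over 9 in Immune cells, 0.37 over 5 in OPCs and 0.27 over 5 in choroid plexus.

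The start regions of 4 of these genes are printed because all 4 hold the 10-base pattern GAAANNGAAA, in which N is any base, and because these are the genes whose levels follow. Each is the 300-base window from 250 bases before to 50 after an annotated start in RefSeq GRCm38.p6, read 5′ to 3′ on the gene's strand, with matches on either strand in capitals and the reverse strand reading as TTTCNNTTTC.
B2m (chr2:122147437-122147736, plus strand): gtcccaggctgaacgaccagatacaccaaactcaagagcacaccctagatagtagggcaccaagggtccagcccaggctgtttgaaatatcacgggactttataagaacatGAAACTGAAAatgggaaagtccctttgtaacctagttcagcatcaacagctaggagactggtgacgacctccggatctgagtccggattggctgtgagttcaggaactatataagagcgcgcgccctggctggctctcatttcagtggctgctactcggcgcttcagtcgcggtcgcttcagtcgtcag
Bst2 (chr8:71537423-71537722, minus strand): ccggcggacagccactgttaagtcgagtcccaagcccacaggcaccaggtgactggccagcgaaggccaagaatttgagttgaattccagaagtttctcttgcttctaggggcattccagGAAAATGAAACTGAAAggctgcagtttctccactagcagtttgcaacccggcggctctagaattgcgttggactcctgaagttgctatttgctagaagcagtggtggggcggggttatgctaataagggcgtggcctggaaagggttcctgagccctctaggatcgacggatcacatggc
Ifit3 (chr19:34583279-34583578, plus strand): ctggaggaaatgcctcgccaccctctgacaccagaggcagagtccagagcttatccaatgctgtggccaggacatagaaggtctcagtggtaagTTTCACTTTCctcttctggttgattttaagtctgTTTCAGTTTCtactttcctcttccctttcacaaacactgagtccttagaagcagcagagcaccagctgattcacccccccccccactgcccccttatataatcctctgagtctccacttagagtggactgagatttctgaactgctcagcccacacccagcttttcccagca
Ifit1 (chr19:34640639-34640938, plus strand): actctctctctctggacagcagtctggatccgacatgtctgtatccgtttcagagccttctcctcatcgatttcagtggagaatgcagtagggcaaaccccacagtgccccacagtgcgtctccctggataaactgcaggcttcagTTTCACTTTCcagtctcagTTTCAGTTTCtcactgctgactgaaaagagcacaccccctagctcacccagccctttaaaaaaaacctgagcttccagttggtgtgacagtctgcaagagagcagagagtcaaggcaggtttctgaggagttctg
Of the 8 genes looked up, 6 were in the table, and 4 of the 6 had a match, while H2-D1 and H2-K1 had none in these letters. The 2 matches of Bst2 overlap by 4 bases. Among all 27025 genes with a window in the table, 1079 (3.99%) had a match, and among all 32851 windows 1131 (3.44%). Such a match describes letters in a window and was not tied to binding or to any change here.

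Class I chain H2-D1, which presents peptides to CD8 T cells, measured 32.6, 29.1 and 24.8 CPM in the 3 PBS nonstim libraries and 41.8, 89.3 and 140.2 CPM in the 3 PBS stim libraries. The groups did not overlap, and the second-batch stimulated libraries were well above the first-batch one. Its log2 fold change was 1.81 ± 0.42 (95% interval 0.93 to 2.69, unadjusted p = 0.000351). B2m, the invariant class I partner, measured 30.6, 41.1 and 37.6 CPM without stimulation and 25.7, 102 and 117 CPM with it (log2 1.29 ± 0.43, unadjusted p = 0.00684). Stimulated replicates 2 and 3 were above every control, and stimulated replicate 1 was the lowest of the 6. H2-K1, the other classical class I chain, measured 23.8, 13.6 and 14.1 against 8.57, 28.3 and 35 CPM (log2 0.75 ± 0.32, and 0.44 without stimulated replicate 3), with the same split between batches. Tap2, a subunit of the transporter that loads peptides, stayed under 5 CPM in all 6 libraries (log2 1.86 ± 0.58).

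Ifit1 measured 0, 0.619 and 0.391 CPM without stimulation and 0, 16 and 3.81 CPM with it, and Ifit3 measured 0.806, 0.206 and 0.391 against 0, 7.68 and 5.71 CPM. Both were at 0 in stimulated replicate 1 and highest in stimulated replicate 2, with log2 fold changes of 4.38 ± 1.11 and 3.96 ± 1.10. Without stimulated replicate 2 Ifit1 was at 2.53, and without stimulated replicate 1 Ifit3 was at 6.11. Few cells stood behind them: the 46 Ifit1 UMIs of stimulated replicate 2 came from 4 of 314 cells, 35 of them from 1 cell, and the 10 of replicate 3 came from 4 of 518 cells. Ifi27l2a, an interferon-induced membrane protein gene, measured 8.06, 28.3 and 18.6 against 2.14, 117 and 134 CPM (log2 2.35 ± 0.81, unadjusted p = 0.00862), from 29 of 314 and 36 of 518 cells in stimulated replicates 2 and 3. Its level in stimulated replicate 1 was again the lowest of the 6 libraries. Usp18, which removes the ubiquitin-like modifier ISG15, measured 1.21, 0.619 and 0.196 against 0, 4.19 and 6.86 CPM (log2 2.97 ± 0.77). Bst2, a membrane tether of enveloped viruses, measured 2.82, 1.45 and 4.30 against 2.14, 16 and 6.47 CPM (log2 1.81 ± 0.66, and 0.75 without stimulated replicate 2).

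These genes passed in some fits and not in others. H2-D1, B2m and Ifi27l2a passed in the fit of the 6 PBS libraries alone, with adjusted p of 0.000195, 0.00133 and 1.93e-05. In the second batch alone 8 oligodendrocyte genes passed, all higher, which were H2-D1, B2m, Ifi27l2a, Ifit3, Ifit1, H2-K1, Usp18 and Nfkbia, an inhibitor of NF-kB. With the replicate block Ifit1 alone passed in this type, at an adjusted p of 0.0496. Ifit3 shares 0.618 of its 31-base words with its copy Ifit3b and H2-D1 shares 0.267 with H2-K1, so the split of reads within these families is uncertain.

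The cells behind these sums were counted with the same genes, several of them chosen after their values were seen, so the counts describe where the UMIs lay and are no separate evidence. Cells with UMIs of at least 3 of 7 interferon and class I genes numbered 3 of 417 (0.719%), 4 of 650 (0.615%) and 4 of 570 (0.702%) oligodendrocytes without stimulation, against 1 of 156 (0.641%), 26 of 314 (8.28%) and 25 of 518 (4.83%) with it. Wilson 95% intervals, which cover counting error only, were 0.245% to 2.09%, 0.240% to 1.57% and 0.273% to 1.79% in the 3 controls. They were 0.113% to 3.54% in stimulated replicate 1, 5.71% to 11.9% in replicate 2 and 3.29% to 7.03% in replicate 3. Thinned to 2000 UMIs per cell, leaving out 4 to 127 shallower cells per library, the counts were 1 of 332, 0 of 625 and 1 of 559 against 1 of 128, 11 of 310 (3.55%) and 18 of 391 (4.60%). Cisplatin libraries were not uniformly low by the same unthinned count, with 30 of 516, 4 of 501 and 4 of 276 oligodendrocytes without stimulation and 12 of 304, 7 of 210 and 11 of 245 with it. Thinned in the same way they held 15 of 415 (3.61%), 0 of 493 and 0 of 262 without stimulation and 3 of 272 (1.10%), 2 of 205 (0.976%) and 1 of 239 (0.418%) with it. Microglial markers summed to 41.9 to 58.6 CPM in stimulated and 52.8 to 102 CPM in control oligodendrocytes, and the part of microglial RNA in these values was not tested.

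**Figure D3:**
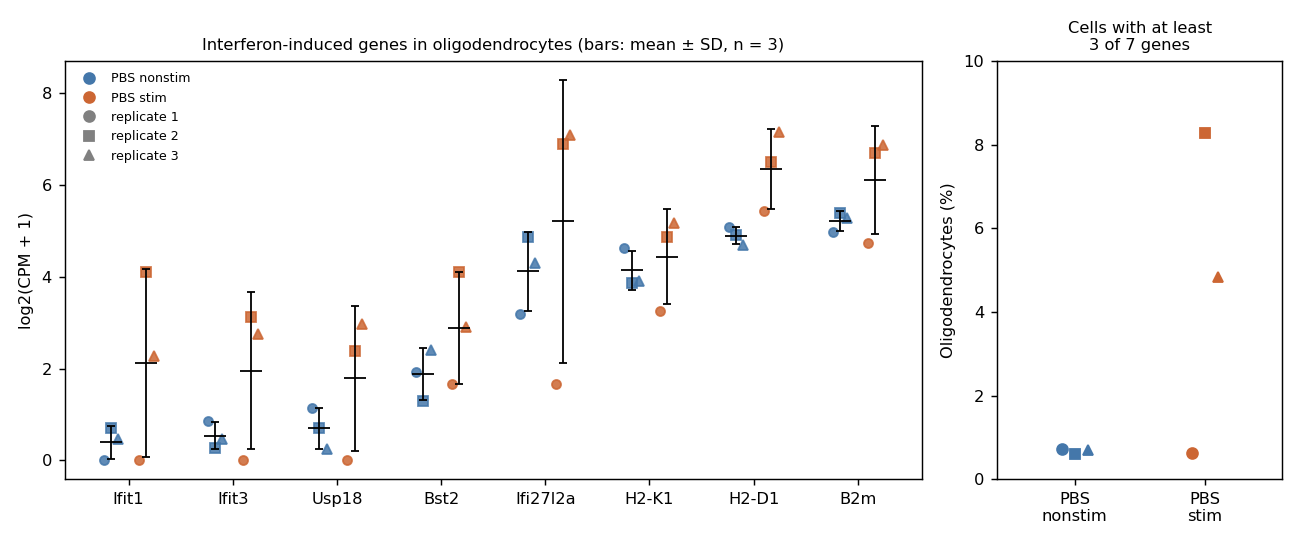
Left, log2(CPM + 1) of 8 interferon and class I genes in oligodendrocytes of the 6 PBS libraries, with points for libraries, symbols for replicate numbers and bars for mean ± SD (n = 3). Right, percent of oligodendrocytes with UMIs of at least 3 of 7 of these genes. PBS stim replicates 2 and 3 lie above all 3 controls for B2m, H2-D1 and Ifi27l2a, and PBS stim replicate 1 lies below the controls for B2m and Ifi27l2a.

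The myelin genes of the same cells were bounded narrowly. All 30 listed myelin genes were tested, 0 passed, their estimates ran from −0.21 to 0.30 with a median of 0.04, and all 30 intervals lay within a 2-fold change. Bcas1, a gene of newly formed myelinating cells, had the smallest p, with 304, 292 and 285 CPM without stimulation and 429.7, 343 and 327 CPM with it. Its groups did not overlap, and its log2 fold change was 0.30 ± 0.10 (unadjusted p = 0.00764). The lineage factor Olig2 measured 184, 159 and 130.5 against 259, 165 and 172 CPM (log2 0.30 ± 0.15, but 0.095 without stimulated replicate 1 and 0.19 without control replicate 3), and the lipocalin Apod 3119, 2648 and 2986 against 2700.3, 2661 and 2425 CPM (log2 −0.17 ± 0.10). Immediate early genes had estimates above 0 for 21 of 24 tested, with a median of 0.37 and 2 of 24 at an unadjusted p under 0.05 and higher; Junb measured 211, 134 and 188 against 373, 311 and 161 CPM, with stimulated replicate 3 within the control range. The gene with the smallest p among lower ones was Rab37, a small GTPase of secretion, at 8.06, 3.1 and 3.33 against 0, 0.698 and 0.762 CPM (log2 −2.67 ± 0.62). Ldlrad4, an inhibitor of transforming growth factor beta signalling, was better measured, at 91.8, 89.4 and 87.5 against 68.6, 72.9 and 62.5 CPM without overlap (log2 −0.39 ± 0.11, unadjusted p = 0.00201).

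OPCs came nearest to the threshold. Mbp, which encodes the myelin basic protein and is made by maturing oligodendrocytes, measured 385, 87.4 and 105 CPM without stimulation and 646, 293 and 108 CPM with it. Stimulated replicates 1 and 2 were above the control of their batch and replicate 3 was level with control replicate 3. Precursors fell into 2 of the authors' clusters, and cluster 18 held 26.5%, 8.28% and 16.5% of them without stimulation and 25%, 26.7% and 20.7% with it, a mix whose part in the OPC values was not tested. The log2 fold change of Mbp was 1.00 ± 0.20 (95% interval 0.60 to 1.39, adjusted p = 0.0791) and 0.57 without PBS stim replicate 2, and it passed with the replicate block (adjusted p = 0.00703). Hes1 (GRCm38 chr16:30064384-30067796), a transcriptional repressor downstream of Notch that holds precursors undifferentiated, measured 261, 163 and 282 against 141, 114 and 125 CPM. Every stimulated library was below every control, with a log2 fold change of −0.88 ± 0.19 (adjusted p = 0.153, and 0.0173 with the block). The histone gene Hist1h2ap, expressed in S phase, measured 33.1, 26.1 and 106 against 102, 208 and 372 CPM (log2 2.14 ± 0.47, adjusted p = 0.154, and 0.00162 with the block), and the estimate was 1.42 without control replicate 2. In stimulated replicates 2 and 3 a single cell gave 97 of 109 and 95 of 107 of its UMIs, and in control replicate 3 a single cell gave 48 of 64. It shares 0.934 of its 31-base words with Hist1h2ao.

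Oligodendrocyte transcripts were also found in other cells. Mbp was present in cells of every type, at 420.4, 99.7 and 119 CPM in control and 537, 146 and 101 CPM in stimulated microglia (log2 0.24 ± 0.20), and at 547, 159 and 210.3 against 836, 197 and 272 CPM in astrocytes (log2 0.44 ± 0.16). In endothelium it measured 335, 105 and 63.9 against 582, 283 and 155 CPM, a log2 fold change of 1.12 ± 0.29 (unadjusted p = 0.000845), and it passed in the fit of the 6 PBS libraries alone (adjusted p = 0.0352). In oligodendrocytes themselves it was 5263, 4681 and 4749 against 5881, 4732 and 4656 CPM. Replicate 1 was the highest library of its group in all of these types. The 6 oligodendrocyte markers summed to 335 to 857 CPM in control OPCs and 328 to 976 CPM in stimulated ones, and the part of transferred oligodendrocyte RNA in the Mbp values was not tested.

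Among other OPC genes, Gpnmb, a glycoprotein of lysosomes, measured 106, 49.2 and 46.5 against 35.2, 22.8 and 20.8 CPM without overlap (log2 −1.30 ± 0.34, adjusted p = 0.473). Pdgfra, the growth factor receptor that defines the precursors, was 1771, 1951 and 1779 against 1528, 1447 and 1549.5 CPM (log2 −0.29 ± 0.15, 95% interval −0.59 to 0.011, and −0.45 to −0.17 with 1 library left out). The cyclin gene Ccnd1 was 1021, 1203 and 1183 against 991, 881 and 941 CPM (log2 −0.28 ± 0.13). In both genes each stimulated library was below each control by a small margin. The proliferation marker Mki67 measured 2.07, 10.0 and 144 against 12.8, 13.3 and 38.2 CPM, so control replicate 3 alone set its direction. Of 30 OPC and proliferation genes 25 were tested and 0 passed, with a median of 0.01 and 1 of 25 at an unadjusted p under 0.05. Scd2, a fatty acid desaturase, was 623, 657 and 717 against 569, 514 and 479 CPM (log2 −0.35 ± 0.14), and the ferritin heavy chain Fth1 1243, 669 and 652 against 1372, 1087 and 677 CPM (log2 0.34 ± 0.17). Without stimulated replicate 2 the Fth1 estimate was 0.035, and without stimulated replicate 1 it was 0.54.

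Microglia were the best measured type and their identity genes had estimates near 0. All 23 homeostatic genes were tested, 0 passed, their estimates ran from −0.11 to 0.12, and all 23 intervals lay within a 2-fold change. P2ry12, the purine receptor that guides microglial processes, measured 2146, 2369 and 2645 CPM without stimulation and 2132, 2434 and 2399 CPM with it (log2 −0.038 ± 0.14). Mef2c, a transcription factor of microglia, was 1246, 1136 and 1133 against 1093, 1088 and 1066 CPM, and the sialic acid receptor gene Cd33 261, 290.4 and 348 against 262, 300.5 and 276 CPM. Of 24 genes of disease-associated microglia 21 were tested and 0 passed, with a median of −0.02. Lgals3, the galectin of that program, measured 2.00, 18.5 and 18.2 against 0, 11.3 and 7.60 CPM (log2 −0.94 ± 0.31, unadjusted p = 0.00659), each stimulated library below the controls of its batch. The phagocytic receptor gene Axl was 1.33, 5.91 and 2.84 against 5.43, 11.5 and 3.45 CPM (log2 0.89 ± 0.48, but −0.075 without stimulated replicate 2) and the growth factor gene Csf1 186, 117 and 129.7 against 143, 109 and 89.5 CPM, with overlapping groups in both.

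No cytokine or phagocytosis gene of microglia passed. Of 26 cytokine and chemokine genes 21 were tested, 0 passed and 0 had an unadjusted p under 0.05, with estimates from −0.50 to 0.29 and a median of −0.03. Il1b, the classical inflammatory cytokine, measured 228, 189.5 and 183 against 316, 146 and 86.4 CPM (log2 −0.33 ± 0.21), the monocyte attractant Ccl2 234, 305 and 416 against 287, 264 and 154 CPM (log2 −0.50 ± 0.25), and the neutrophil attractant Cxcl2 116, 21.3 and 35.8 against 115, 33.2 and 40.4 CPM. The groups overlapped in each of the 3. Without stimulated replicate 3 Il1b was at −0.066 and Ccl2 at −0.27, and without control replicate 1 they were at −0.57 and −0.81. Of 27 phagocytosis and lysosome genes 23 were tested, 0 passed, and the median was 0.02, with the cathepsin gene Ctsb at log2 0.083 ± 0.10 and Ctss at 0.075 ± 0.094. Ccl5, a T cell attractant, was too low to be tested with all 12 libraries, with 0, 20 and 7 UMIs without stimulation and 4, 109 and 52 with it. A single cell gave 94 of the 109 and another 32 of the 52, and Ccl5 passed in 8 of the 12 fits that left out 1 library.

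No glucocorticoid response gene of microglia passed. Of 20 such genes 14 were tested, and 3 had an unadjusted p under 0.05, all 3 with estimates above 0. Over all microglial genes 267 of 9903 (2.70%) were under that p, 126 higher and 141 lower. The directions of the other tested members are not given. Ddit4, an inhibitor of mTOR induced by glucocorticoids and by stress, measured 10.0, 21.1 and 17.6 CPM without stimulation and 12.2, 38.1 and 43.5 CPM with it. Each stimulated library was above the controls of its batch, but in the first batch only by 12.2 against 10.0 CPM. The log2 fold change fitted over both batches was 0.98 ± 0.26 (unadjusted p = 0.00115). Tsc22d3, the glucocorticoid-induced leucine zipper, was 153, 197 and 173 against 163, 259 and 278 CPM (log2 0.41 ± 0.12, unadjusted p = 0.00209), higher in stimulated replicates 2 and 3. In the fit of the 6 PBS libraries alone Ddit4 passed in microglia (adjusted p = 0.0281), and in the second batch alone it passed in endothelium, higher in both. Outside that list, genes with estimates below 0 included St8sia4, which builds polysialic acid, at 18.7, 19.7 and 17.3 against 10.9, 9.81 and 12.1 CPM without overlap (log2 −0.79 ± 0.20, unadjusted p = 0.000713). The nuclear receptor gene Rora of the clock was 18, 10.6 and 12.8 against 8.15, 7.51 and 6.91 CPM, also without overlap (log2 −0.77 ± 0.25). Sag, an arrestin gene best known from photoreceptors, measured 25.4, 23.2 and 39.7 against 39.4, 61.2 and 61.5 CPM (log2 0.93 ± 0.21, adjusted p = 0.951, and log2 0.59 without control replicate 2).

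No gene of water or transmitter transport passed in astrocytes. All 27 listed genes were tested, 0 passed, estimates ran from −0.31 to 0.32, and all 27 intervals lay within a 2-fold change. Aqp4, the water channel of astrocyte endfeet, measured 719.7, 849 and 1069.9 CPM without stimulation and 875, 972 and 811 CPM with it, with overlapping groups and a log2 fold change of 0.021 ± 0.15 (95% interval −0.29 to 0.33). The glucose transporter gene Slc2a1 was 121, 88.2 and 83.9 against 90.3, 73.8 and 70.7 CPM (log2 −0.31 ± 0.15, and −0.19 without control replicate 1), and the GABA-B receptor gene Gabbr1 321, 222 and 265 against 394, 274 and 278 CPM. Of 24 reactive astrocyte genes 11 were tested, 0 passed and 0 had an unadjusted p under 0.05, with a median of 0.08. Gfap, the intermediate filament of reactive astrocytes, measured 316, 374 and 620.1 against 629, 374 and 498 CPM (log2 0.22 ± 0.27, but −0.11 without stimulated replicate 1), and the protease inhibitor Serpina3n 7.65, 11.2 and 18.4 against 7.01, 10.2 and 4.21 CPM (log2 −0.78 ± 0.48, and −0.43 without control replicate 3). Csnk1g3, a casein kinase gene, had among the smallest p of the lower genes, at 39, 36.2 and 36.8 against 22.8, 19.6 and 26.1 CPM without overlap (log2 −0.71 ± 0.21, unadjusted p = 0.00172). Cdk5r2, an activator of the kinase Cdk5, was 6.12, 2.50 and 5.08 against 29.8, 6.28 and 7.57 CPM (log2 1.56 ± 0.41, and 1.02 without stimulated replicate 1).

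Endothelial barrier genes were bounded as tightly. Of 27 blood-brain barrier and transport genes 24 were tested, 0 passed, estimates ran from −0.18 to 0.30 and all 24 intervals lay within a 2-fold change. The 3 members with the smallest p were the lactate transporter Slc16a1 at 387, 472 and 439.9 against 556, 593 and 458 CPM (log2 0.30 ± 0.15), the tight junction gene Ocln at log2 0.28 ± 0.14 and the amino acid transporter Slc7a5 at log2 0.22 ± 0.14. Slc7a5 was at 0.022 without stimulated replicate 1, and without control replicate 1 Slc16a1 was at 0.16 and Ocln at 0.14. Among 15 activation genes 11 were tested and 0 passed, and the adhesion molecule gene Vcam1 measured 25.9, 23.7 and 10.4 against 0, 102 and 21.3 CPM, so 1 stimulated library set its direction. All 23 immediate early genes tested had estimates below 0, with a median of −0.19 and 1 at an unadjusted p under 0.05, Fos at 3779.6, 2657 and 1849 against 2704, 1662 and 1886 CPM (log2 −0.39 ± 0.16, unadjusted p = 0.0225). Fos stood between 1662 and 3780 CPM in the 6 PBS libraries, in tissue that had been dissociated with enzymes. Of 17 class I presentation genes 15 were tested in endothelium, with 13 estimates below 0 and 3 at an unadjusted p under 0.05, all lower, and the difference from oligodendrocytes was not tested. The immunoproteasome subunit Psmb9 measured 104, 103 and 103 against 57.2, 70.2 and 79 CPM without overlap (log2 −0.53 ± 0.17, unadjusted p = 0.00448).

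Other endothelial genes were Urb1, a ribosome biogenesis factor, at 0, 4.23 and 4.46 against 15.6, 17.6 and 15.2 CPM (log2 2.33 ± 0.60) and the nucleotidase gene Cant1 at 30.4, 40.6 and 46.1 against 20.8, 17.6 and 19.8 CPM (log2 −1.09 ± 0.28, unadjusted p = 0.000742). Neither had overlapping groups, but values of this size rest on few UMIs. In endothelium 10 UMIs of Hbb-bs made 17.6 CPM in stimulated replicate 2, and 2 made 2.97 CPM in control replicate 3. Stimulated replicate 1 held 26 endothelial cells. Of 19 circadian clock genes 15 were tested in endothelium, 0 passed, 6 had estimates above 0 and the median was −0.06. Its 2 members at an unadjusted p under 0.05, Nr1d2 and Per1, were at log2 0.78 ± 0.27 and 0.61 ± 0.23, and at 0.40 and 0.40 without control replicate 2. Of 26 p53 target genes 20 were tested, 0 passed, 10 had estimates above 0 and the median was 0.01. The 2 at an unadjusted p under 0.05, Sesn1 and Trp53inp1, were at 0.55 ± 0.18 and 0.71 ± 0.25, and Sesn1 at 0.35 without stimulated replicate 3. Trp53inp1, a mediator of p53-dependent arrest, measured 24.4, 38.1 and 32.7 against 52, 56.2 and 57.8 CPM, every stimulated library above every control. Stard4, a carrier of cholesterol, was 59.4, 71.1 and 75.8 against 119.6, 107 and 83.6 CPM (log2 0.52 ± 0.19), and the histone gene Hist1h2bc 159.8, 152 and 179.8 against 78, 123 and 120.1 CPM (log2 −0.58 ± 0.20), both without overlap.

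Pericytes were few, and stimulated replicate 1, with 5 cells, did not enter the fit, so 2 stimulated libraries stand against 3 controls. No contractile gene passed. Of 18 contraction and matrix genes all 18 were tested, 15 had estimates below 0 and 6 had an unadjusted p under 0.05, all 6 with estimates below 0, with a median of −0.24. Acta2 (GRCm38 chr19:34241090-34255590), smooth muscle actin, measured 0, 1083 and 371 CPM without stimulation and 182 and 112 CPM in stimulated replicates 2 and 3 (log2 −2.09 ± 0.67, unadjusted p = 0.00453, adjusted p = 0.00088 with the block). Tagln, an actin-binding protein of smooth muscle, measured 0, 885 and 213 against 157 and 73.3 CPM (log2 −2.11 ± 0.76). Control replicate 1 was at 0 for both, below both stimulated libraries, and only control replicates 2 and 3 were above them. In the block fit control replicate 1 had no stimulated library of its number. The adjusted p of Acta2 with the block therefore rests on replicates 2 and 3 and leaves out that contrary control. Tpm2 and Myh11, a tropomyosin and the smooth muscle myosin, had log2 fold changes of −1.32 ± 0.43 and −1.35 ± 0.53. These values rested largely on control replicate 2: without it the log2 fold change was −0.87 for Acta2, −0.43 for Tagln, −0.51 for Tpm2 and −0.72 for Myh11. Without stimulated replicate 3 Tpm2 and Myh11 were both at −0.74. Acta2 UMIs came from few cells, with 609 in 15 of 70 cells and 101 in 3 of 32 in control replicates 2 and 3, against 37 in 2 of 24 and 46 in 6 of 49 in the stimulated ones. Acta2, Tagln and Myh11 are also markers of arterial smooth muscle, and the part of such cells among those annotated as pericytes was not tested.

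The Notch feedback gene Nrarp was 120.3, 88.9 and 69.7 against 49.2 and 26.9 CPM (log2 −1.22 ± 0.35), the endothelin receptor Ednra 82.7, 99.6 and 106 against 78.7 and 34.2 CPM (log2 −0.95 ± 0.36) and the TGF-beta receptor Tgfbr1 52.6, 33.8 and 55.1 against 9.84 and 19.5 CPM (log2 −1.38 ± 0.53). Each of these 3 genes was lower in both stimulated libraries than in every control. The share of all pericyte genes placed this way is not given, so the placing is no separate evidence. Ednra was at −0.32 without stimulated replicate 3 and −1.50 without stimulated replicate 2. Mrpl9, a mitochondrial ribosomal protein, measured 37.6, 30.2 and 33 against 59 and 92.9 CPM (log2 1.30 ± 0.35, and 0.86 without stimulated replicate 3). Among 15 myelin genes tested in pericytes 14 had estimates below 0 and 7 an unadjusted p under 0.05, all lower. Mbp measured 511, 108 and 184 against 133 and 36.7 CPM in pericytes (log2 −1.07 ± 0.43).

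No mitochondrially encoded gene of choroid plexus epithelium passed, though several did in other fits. The 13 listed genes encode subunits of the respiratory chain, all 13 were tested, and all 13 had estimates below 0, with a median of −0.90. The cytochrome oxidase subunit mt-Co3 measured 4766, 16011 and 19621 CPM without stimulation and 2267, 9898 and 7351 CPM with it. Within each batch the stimulated libraries were below the controls, while the first batch was low in both groups, and the log2 fold change was −1.05 ± 0.58 (unadjusted p = 0.0898). With the replicate block its adjusted p was 0.000172. Without stimulated replicate 1 mt-Co3 was at −0.58, mt-Nd3 at −0.66 and mt-Co1 at −0.41, and without control replicate 3 they were at −0.64, −0.58 and −0.60. With all libraries mt-Nd3, of complex I, had −1.12 ± 0.60 (adjusted p = 0.000172 with the block) and mt-Co1 −0.90 ± 0.60 (0.00025). In the fit of the 6 PBS libraries alone 44 choroid plexus genes passed, 40 of them lower, and 12 of the 44 were mitochondrially encoded. The same held for 10 of 14 with the replicate block and 8 of 12 in the second batch alone. With DESeq2, limma-voom, the ribosomal RNA-like covariate or 1 library left out, 0 choroid plexus genes passed. The median mitochondrial share of choroid plexus cells was 3.11%, 5.94% and 5.66% without stimulation and 3.15%, 3.67% and 4.16% with it. The 39 nuclear genes of oxidative phosphorylation had a median of 0.00 and all 39 intervals within a 2-fold change. The gene Gm28437 shares 0.999 of the 31-base words of mt-Co3, so reads can be divided between the copies.

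Secreted and transport proteins of the choroid plexus had estimates below 0 for 28 of 31 genes tested, with a median of −0.28, and 0 passed and 0 had an unadjusted p under 0.05. Ttr, the thyroxine carrier that marks the tissue, measured 59185, 164280.0 and 130910.0 CPM without stimulation and 30752, 117230.0 and 127890.0 CPM with it (log2 −0.40 ± 0.43). The first batch was low in both groups, with 29 and 18 cells. Hey2 (GRCm38 chr10:30832359-30842801), a Notch target, had the smallest p of the type, at 17, 22.9 and 29.2 against 7.82, 13.2 and 10.4 CPM without overlap (log2 −1.19 ± 0.34, unadjusted p = 0.003). The zinc finger gene Zfp385b was 28.3, 50.5 and 35.1 against 23.5, 18.5 and 23.4 CPM (log2 −0.91 ± 0.27), also without overlap. Higher values were seen for Isoc1 at 28.3, 15.3 and 29.2 against 31.3, 48.1 and 43.9 CPM (log2 0.88 ± 0.29, and 0.56 without control replicate 2) and for the histone gene Hist2h2aa1 at log2 1.24 ± 0.42 (0.79 without stimulated replicate 3). Lmx1a, a transcription factor of the roof plate lineage, was 5.65, 36.7 and 42.8 against 31.3, 19.8 and 24.1 CPM and the tight junction gene Cldn3 11.3, 29.1 and 12.7 against 0, 4.62 and 13.4 CPM, both with overlapping groups.

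No activity gene of neurons passed, in 69 to 140 cells per library. The neurons of stimulated replicate 1 stood apart, with a median mitochondrial share of 36.1% and a median unspliced share of 6.14%, against 5.51% to 18.2% and 48.8% to 70.4% in the other 5 libraries. Cluster 10 held 68.1% of its neurons and 23.1% to 32.6% of those in the others. The part of these differences in the neuron values was not tested, and values without that library are given where they moved by over 1.5 times. Of 29 immediate early genes 21 were tested, 0 passed and 0 had an unadjusted p under 0.05, with 14 estimates above 0 and a median of 0.09. Fos measured 132, 355 and 128 CPM without stimulation and 79.6, 219.9 and 385 CPM with it, with stimulated replicate 3 the highest and stimulated replicate 1 the lowest of the 6. Its log2 fold change was 0.095 ± 0.48 (95% interval −0.90 to 1.09), too wide to bound a 2-fold change, and the estimate was 0.37 without stimulated replicate 1 and −0.38 without stimulated replicate 3. Npas4, a factor induced by calcium entry, had 40, 48 and 19 UMIs against 19, 22 and 45, and Arc, a plasticity gene, 15, 13 and 14 against 4, 6 and 29. The neurotrophin gene Bdnf was 153, 75.9 and 53.8 against 107, 100.2 and 116 CPM (log2 0.30 ± 0.27, and 0.55 without stimulated replicate 1).

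No synapse gene of neurons passed. Of 28 synaptic vesicle and plasticity genes 27 were tested, with estimates from −0.73 to 0.98, of which 19 were above 0, a median of 0.15, and 1 gene at an unadjusted p under 0.05. That gene was Nlgn1, the postsynaptic adhesion molecule of excitatory synapses, at 64.7, 85.6 and 117 against 39.8, 78.2 and 39.5 CPM (log2 −0.73 ± 0.33, and −1.18 without stimulated replicate 2). Sv2b, a synaptic vesicle glycoprotein gene, measured 2.31, 42 and 67.3 against 131, 61.1 and 56.7 CPM (log2 0.98 ± 0.55). Leaving out 1 library took its estimate from 0.082, without control replicate 1, to 1.65, without control replicate 3, and it was 0.65 without stimulated replicate 1. Of 22 glutamate and GABA receptor genes 21 were tested, 0 passed, estimates ran from −0.34 to 0.38 and 19 of 21 intervals lay within a 2-fold change. The GABA-A subunit genes Gabra5 and Gabra2 were at log2 0.35 ± 0.29 and 0.30 ± 0.27, and Gabra2 at 0.15 without control replicate 3. Of 15 interneuron and peptide genes 7 were tested and 0 passed, and Cck, a peptide of a class of inhibitory basket cells, measured 208, 121 and 137 against 362, 134 and 189.9 CPM (log2 0.50 ± 0.32, and 0.31 without stimulated replicate 1). Calb2, the calretinin gene, was 2.31, 84 and 60.6 against 0, 112 and 163 CPM, near 0 in both first-batch libraries. Dmd (GRCm38 chrX:82948870-85206141), dystrophin, had among the smallest p of the lower genes, at 85.5, 145 and 170.5 against 43.8, 78.2 and 69.1 CPM without overlap (log2 −1.04 ± 0.28, unadjusted p = 0.00112). Sorcs3, a sorting receptor of synapses, was 39.3, 30.7 and 58.3 against 15.9, 9.78 and 24.7 CPM (log2 −1.31 ± 0.45), the mitochondrial import factor Grpel1 16.2, 40.4 and 26.9 against 55.7, 48.9 and 81.4 CPM (log2 1.11 ± 0.35) and the kinase Uhmk1 23.1, 50.1 and 22.4 against 83.6, 51.3 and 71.5 CPM (log2 1.02 ± 0.33, and 1.57 without control replicate 2). Without stimulated replicate 1 Dmd was at −0.99, Grpel1 at 1.00 and Uhmk1 at 0.79.

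Cells annotated as Immune numbered 14 to 68 per library, so single cells could set a value. The neutrophil granule genes S100a8, S100a9, Ngp and Camp had 1744, 2084, 398 and 222 UMIs in stimulated replicate 2, in 3 cells at most of its 68, and 0 in the other 5 PBS libraries. They were among the 7 genes that passed with DESeq2 and among the 8 that passed in this type with the replicate block. Ly6c2, a marker of inflammatory monocytes, was at 0 in all 3 controls and stimulated replicate 1 and at 291 and 40.9 CPM in stimulated replicates 2 and 3. The chemokine receptor gene Ccr1 measured 40.2, 97.8 and 114 against 83, 227 and 269.9 CPM (log2 1.26 ± 0.42), and the lower genes Ggnbp2 and Arrdc3 had log2 fold changes of −1.66 ± 0.52 and −2.05 ± 0.64, and Ggnbp2 was at −2.53 without stimulated replicate 3.

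Transcripts of cells outside a type moved with single libraries across several types. Ttr, made by the choroid plexus, was highest among the 6 libraries in stimulated replicate 3 in astrocytes, endothelium, Immune cells, microglia, neurons, OPCs and pericytes, but not in oligodendrocytes. In astrocytes it measured 12.2, 104 and 118 against 8.77, 137 and 990.3 CPM (log2 2.07 ± 0.51), and 760 of the 1177 UMIs of stimulated replicate 3 lay in 1 cell. In OPCs it measured 14.5, 95.4 and 149 against 12.8, 173 and 1567 CPM (log2 2.58 ± 0.68, adjusted p = 0.473, and 0.0173 with the block), with 331 of 451 UMIs in 1 cell. Without stimulated replicate 3 the astrocyte estimate was 0.083 and the OPC estimate 0.44. Choroid plexus cells were also most frequent in that library, at 24.1%, and the part of free choroid plexus RNA was not tested. The haemoglobin gene Hbb-bs of red cells went the other way, at 492, 5800.1 and 2.97 against 0, 17.6 and 0 CPM in endothelium and 21.4, 235 and 7.09 against 2.72, 10.4 and 7.25 CPM in microglia. Single cells of control replicate 2 held 4800 of 6851 and 983 of 1191 of these UMIs.

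The 62 cytosolic ribosomal protein genes had list medians from −0.06 in endothelium to 0.15 in neurons, and all 62 intervals lay within a 2-fold change in 8 of 9 types. The 39 nuclear oxidative phosphorylation genes had medians from −0.12 to 0.16. Cholesterol synthesis genes had medians of 0.07 in astrocytes and −0.03 in oligodendrocytes, and 29 of 29 and 28 of 29 intervals lay within a 2-fold change. Heat shock chaperones, which dissociation can induce, had medians from −0.30 in Immune cells to 0.03 in neurons, and 0 passed in any type.

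**Figure D4:**
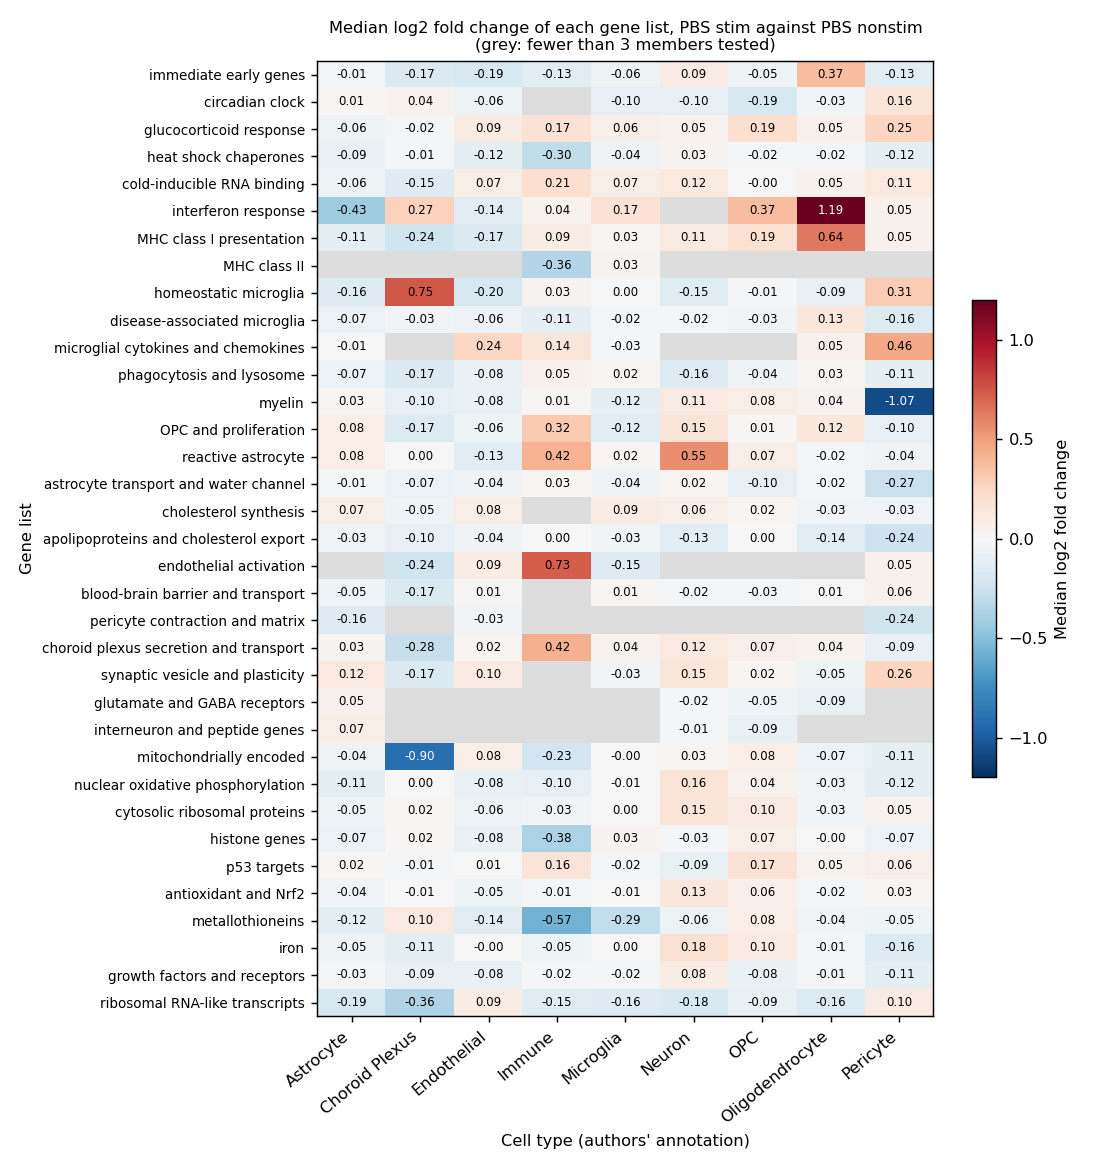
Median log2 fold change (PBS stim over PBS nonstim, colour scale and printed) of each gene list (rows) in each of the 9 cell types (columns), grey where fewer than 3 members were tested. The interferon list in oligodendrocytes is at 1.19 over the 10 members tested, and the mitochondrially encoded list in choroid plexus is at −0.90.

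The same model asked whether stimulation acted differently in PBS mice and in cisplatin mice, through the interaction of stimulation and drug. It passed in 17 of 69488 tests (0.0245%), 11 with a positive interaction, which is the log2 effect in cisplatin mice minus that in PBS mice, and 6 with a negative one, and 3394 had an unadjusted p under 0.05. Of the 17 genes 16 are reported here. The 2 effects share no library, but both are estimated with 1 spread over the 12 libraries. The drug arms also differed in ribosomal RNA-like share, at 1.87% to 3.65% in second-batch PBS libraries and 0.417% to 0.782% in second-batch cisplatin libraries. With that share as a covariate 34 tests passed for the interaction, and the part of this difference in the 17 was not tested. In cisplatin mice 136 genes passed for stimulation itself, 100 of them in oligodendrocytes.

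In oligodendrocytes 9 of 10094 genes (0.0892%) differed between the drug arms. The share was 0.0303% of 9903 genes in microglia (0.0202% with a positive and 0.0101% with a negative interaction), 0.0303% of 6591 in pericytes, 0.0152% of 6561 in neurons, 0.013% of 7684 in OPCs and 0.00984% of 10163 in astrocytes. Gstp1, a glutathione transferase, measured 552, 425 and 329.7 CPM in PBS nonstim and 1140.1, 417 and 581 CPM in PBS stim, a log2 fold change of 0.61 ± 0.20, against −1.04 ± 0.20 in cisplatin mice. In microglia the same gene was at 29.4, 10.8 and 14.5 against 58.4, 11.5 and 24.2 CPM (log2 0.63 ± 0.23), against −1.82 ± 0.32 in cisplatin mice. The interaction was −1.66 ± 0.28 (adjusted p = 0.0163) in oligodendrocytes and −2.45 ± 0.40 (adjusted p = 0.0168) in microglia. Apod had −0.17 ± 0.10 in PBS and 0.67 ± 0.10 in cisplatin mice, Plin4, a lipid droplet coat protein, −0.85 ± 0.37 and 1.65 ± 0.18, and Scrg1, a gene first described in prion disease, −0.97 ± 0.36 and 1.17 ± 0.19. Nkain1, which interacts with the sodium pump, measured 40.3, 40.9 and 34 against 63.2, 44 and 55.2 CPM without overlap (log2 0.46 ± 0.14), against −0.70 ± 0.16 in cisplatin mice. Usp50, a deubiquitinase relative, had −0.58 ± 0.25 and 1.63 ± 0.25.

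Several of the others are near copies of ribosomal protein genes. Gm2000 shares 0.904 of its 31-base words with Rpl35, Rpl10-ps3 0.965 with Rpl10 and Rps27rt 0.927 with Rps27, so their reads can belong to the parent genes. Gm2000 in microglia measured 26, 47.5 and 32.4 against 13.6, 39 and 27.3 CPM (log2 −0.37 ± 0.21), against 1.96 ± 0.21 in cisplatin mice, with an interaction of 2.33 ± 0.30 (adjusted p = 0.00103). It was the only 1 of the 16 to pass whichever of the 12 libraries was left out. Rps27rt in neurons measured 34.7, 82.4 and 38.1 against 7.96, 26.9 and 22.2 CPM without overlap (log2 −1.44 ± 0.38, and −1.36 without stimulated replicate 1), against 1.77 ± 0.40 in cisplatin mice. Ttr differed in astrocytes, OPCs and pericytes, with interactions of −4.01 ± 0.70, −5.38 ± 0.92 and −4.78 ± 0.55, and without PBS stim replicate 3 it passed in none of the 3. In OPCs of cisplatin mice it measured 512, 6269 and 227 CPM without stimulation and 143, 448 and 397 CPM with it, so 1 cisplatin library lay far above the rest. Nrarp in pericytes had −1.22 ± 0.35 in PBS and 1.18 ± 0.27 in cisplatin mice, an interaction of 2.39 ± 0.44 (adjusted p = 0.0453). The count was 3 without PBS stim replicate 3, 41 without PBS nonstim replicate 3 and 87 with the replicate block.

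**Figure D5:**
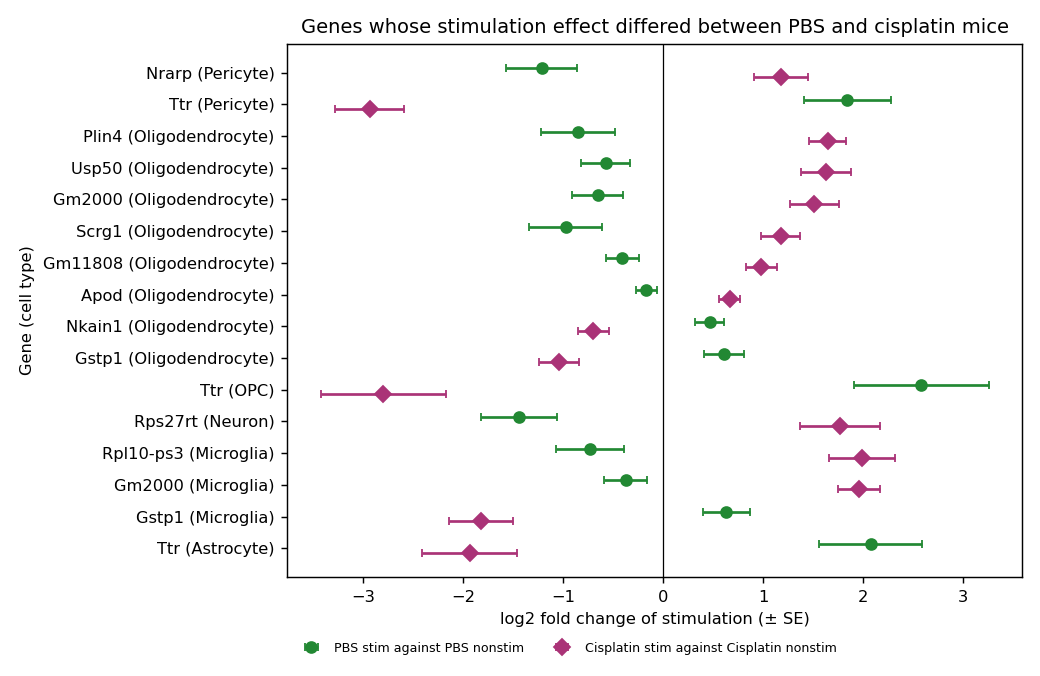
Log2 fold change of stimulation (horizontal axis, ± SE) in PBS mice and in cisplatin mice for the 16 reported gene and cell type pairs whose effects differed between the arms. In all 16 pairs the 2 estimates lie on opposite sides of 0.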

How the data were processed

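Hippocampal cells were profiled by 3′ single-cell RNA-seq. The deposited matrices hold UMI counts per gene and cell, made by the authors with Cell Ranger 5.0.0 and Scanpy on mm10, per the submitters' processing notes. The gene annotation was not given in the sources used here. Per cell, the deposited table gives each cell's type and its size totals, used as a signal of depth. Doublets were not called further.

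Counts were summed per library and authors' cell type (at least 10 cells) and fitted over all 12 libraries with edgeR 4.0.16 in R 4.3.3 (quasi-likelihood, TMM, low-count filter, batch term), with adjustment over all genes of a type. limma 3.58.1 and DESeq2 1.42.0 were alternatives. P-values measure the spread between libraries. The fits were tested on simulated data. Same-numbered PBS libraries deviated together (correlations 0.420, 0.273 and 0.277), but replicates 2 and 3 correlated about as much across numbers (0.251 and 0.274). These correlations do not set a pairing by number apart from batch. The block is given beside the count as an alternative only. Ependymal cells, fibroblasts and progenitors were not tested.

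The members and gene lists were chosen with earlier results of these data known. Named genes are, per type, the 2 with the smallest p in each direction (no predicted or Rik genes) and up to 3 per list in the types it was meant for, of which a selection is printed; B2m, Bst2, H2-K1, Ifi27l2a, Tpm2, Myh11, Aqp4, P2ry12, Bdnf, Ccl5, the neutrophil genes, the mitochondrial genes, genes named from another fit, and Fos in neurons and Ttr in choroid plexus were chosen after their values were seen. For the interaction the planned rule named up to 4 called genes per direction and type, but 16 of the 17 called genes are given instead. The interaction's 17th gene and a few other genes are not reported here.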

Additional observations from a re-analysis of the deposited data

Results flagged for a closer look

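The interaction of stimulation and drug passed the test in 16 reported cases. Without the batch term 0 tests passed for the interaction. The value given is the log2 effect in cisplatin mice minus that in PBS mice. Ttr had −4.01 in astrocytes, −5.38 in OPCs and −4.78 in pericytes. Gstp1 had −2.45 in microglia and −1.66 in oligodendrocytes. Near copies of ribosomal protein genes gave 2.33 (Gm2000 in microglia), 2.17 (Gm2000 in oligodendrocytes), 2.72 (Rpl10-ps3 in microglia), 1.39 (Gm11808 in oligodendrocytes) and 3.2 (Rps27rt in neurons). In oligodendrocytes Usp50 had 2.21, Plin4 2.50, Apod 0.83, Scrg1 2.15 and Nkain1 −1.16. Nrarp had 2.39 in pericytes. Gm2000 in microglia passed whichever of the 12 libraries was left out. Without PBS stim replicate 3 none of the reported oligodendrocyte cases passed, and neither did Ttr in astrocytes or OPCs.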

How the results depend on the processing

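The count of genes that passed for stimulation in PBS mice, 0 as reported, was also 0 with RLE normalization, limma-voom, no batch term, at least 20 cells, or without cells over 10% mitochondrial UMIs. It was 7 with DESeq2, 12 with the ribosomal RNA-like share as covariate, 27 in the second batch alone, 38 with the replicate block, 73 with the 6 PBS libraries alone and 169 with no filter on low counts. With both the 6 PBS libraries alone and the block, an alternative chosen after seeing the data, it was 86. Leaving out 1 library gave 1 to 13. The interaction count of 17 became 0 without the batch term, 10 with limma-voom, 34 with the ribosomal RNA-like covariate, 69 in the second batch alone, 87 with the block and 341 with no filter, and 3 to 41 with 1 library left out. The cause was not tested. No cell type share passed in any alternative.

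Directions turned for genes whose estimates lay near 0 or rested on 1 library. Leaving out 1 library gave ranges of −0.075 to 1.70 for Axl in microglia, −2.02 to 1.42 for Mki67 in OPCs, −0.11 to 0.54 for Gfap and −0.066 to 0.16 for Aqp4 in astrocytes, −0.34 to 1.78 for Vcam1 in endothelium, −0.65 to 0.0076 for Ttr in choroid plexus, −0.16 to 0.062 for P2ry12 in microglia and −0.38 to 0.61 for Fos in neurons. In the second batch alone Gfap was −0.18 and Aqp4 −0.099, Aqp4 was −0.029 without high-mitochondrial cells, and choroid plexus Ttr was 0.0076 with at least 20 cells.

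The share of intervals within a 2-fold change was lowest in Immune cells (37.2%), pericytes (50.5%) and choroid plexus (56.6%). With 3 libraries per group, of which replicate 1 is another batch, differences within a batch rest on 1 or 2 libraries per group.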
